A study of Saccharomyces cerevisiae with 3 samples.

Results

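The large-subunit ribosomal protein genes of baker's yeast, with the genes of the ribosomal stalk, were followed on 3 two-colour arrays that set a strain lacking YAP1 against wild type. The members were all genes whose platform symbol is RPL with a number and an optional A or B, or RPP with 0, 1 or 2 and an optional A or B. This rule found 79 of the 5539 named genes on the arrays, each with 2 spots. On each array, total RNA of the yap1 deletion mutant carried Cy3 and that of wild type carried Cy5. Both strains had spent 1 h in 0.2 mM As(III), arsenite. Yap1 activates genes of the oxidative and metal stress response. No unexposed culture was analysed here, so what arsenite itself does to these genes is outside the comparison. The labels name neither the strain background nor separate cultures for the 3 replicates, and a p-value here speaks only of how far the 3 arrays differ, which may be technical.

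The large subunit, 60S, carries the peptidyl transferase centre, where amino acids are joined, and the tunnel through which the new chain leaves. The stalk, built of RPP0 and the acidic P1 and P2 proteins, recruits and stimulates the translation factors that use GTP. Most yeast ribosomal proteins are encoded by a pair of genes, named A and B, that remained from an ancient genome duplication. Their transcription is driven together by Rap1, Fhl1, Ifh1 and Sfp1 and follows growth signals through the TOR and protein kinase A pathways. In yeast, ribosomal protein transcripts fall together in many kinds of stress.

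Of the 79 members, 66 form 33 A and B pairs, 10 are single-copy genes, and RPL18B and RPL36A have a partner that is not among the named genes here. The remaining member, RPP1, matches the rule only by its symbol: it encodes a protein subunit of RNase P and RNase MRP, not a stalk protein, and is kept apart below. The stalk is therefore made up of RPP0, RPP1A, RPP1B, RPP2A and RPP2B. Locus names were taken from RefSeq's genes of assembly R64, which hold all 79.

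The values are log ratios of the channels of an array. No source used here gives the base of the logarithm or the direction of the ratio, and the column medians over spots of −2.13, −2.37 and −1.61 show that the deposited values were not centred on 0. Each gene is therefore given on the deposited log scale minus the median over named genes of that array (−2.11, −2.30 and −1.59 on replicates 1, 2 and 3). A positive value is called the high side and a negative value the low side, which does not say in which strain a transcript was more abundant, and no fold change is given. The dyes were never swapped, so dye and strain cannot be told apart at any gene. YAP1 itself lay at −1.43, −0.22 and −0.74, and its low-side call (limma adjusted p = 0.0323) was lost without replicate 1 (−0.48, adjusted p = 0.226), without replicate 3 (−0.83, adjusted p = 0.197), centred on spots without a symbol (−0.081, adjusted p = 0.837) and by last spots (−0.32, adjusted p = 0.452), so it did not settle the direction. Because a ratio of total RNA is relative, fewer cells with a transcript and less of it per cell cannot be told apart.

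Nearly the whole large subunit stood together on the high side. By limma's moderated test across all 5539 genes, with Benjamini-Hochberg adjustment and a threshold of 0.05, 73 of the 79 members were called high and 0 low. Over all genes the test called 16% high and 12.5% low. No member on the low side had an unadjusted p under 0.05 either. The adjusted p of the called members ran from 7.76e-06 to 0.0374. The median of the members was 2.00, against −0.02 over all named genes, and it was 2.08, 2.04 and 2.03 on replicates 1, 2 and 3. The quartiles of the members were 1.81 and 2.16, and those of all genes −0.42 and 0.44. On replicates 1, 2 and 3, 68, 58 and 74 members exceeded the 95th percentile of the genes of that array. Without replicate 3, 15 members lost the call, among them RPP0, RPL5, RPL30, RPL32, RPL31B, RPL40A, RPL20A and RPL1A, and 323 genes of the whole table were called, against 1443 without replicate 1 and 889 without replicate 2.

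The position of the members depends on the zero that is chosen. As deposited, they had a median of −0.02, −0.27 and 0.44 on the 3 arrays, while 1.61, 1.12 and 3.12% of all genes lay above 0. Averaged over the arrays, 87 named genes lay above 0 as deposited. Of these, 40 were large-subunit or stalk genes and 33 were small-subunit genes. Relative to 0 in place of the array median, 0 members were called high and 7 low, and the median of the members was 0.0038.

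**Figure D1:**
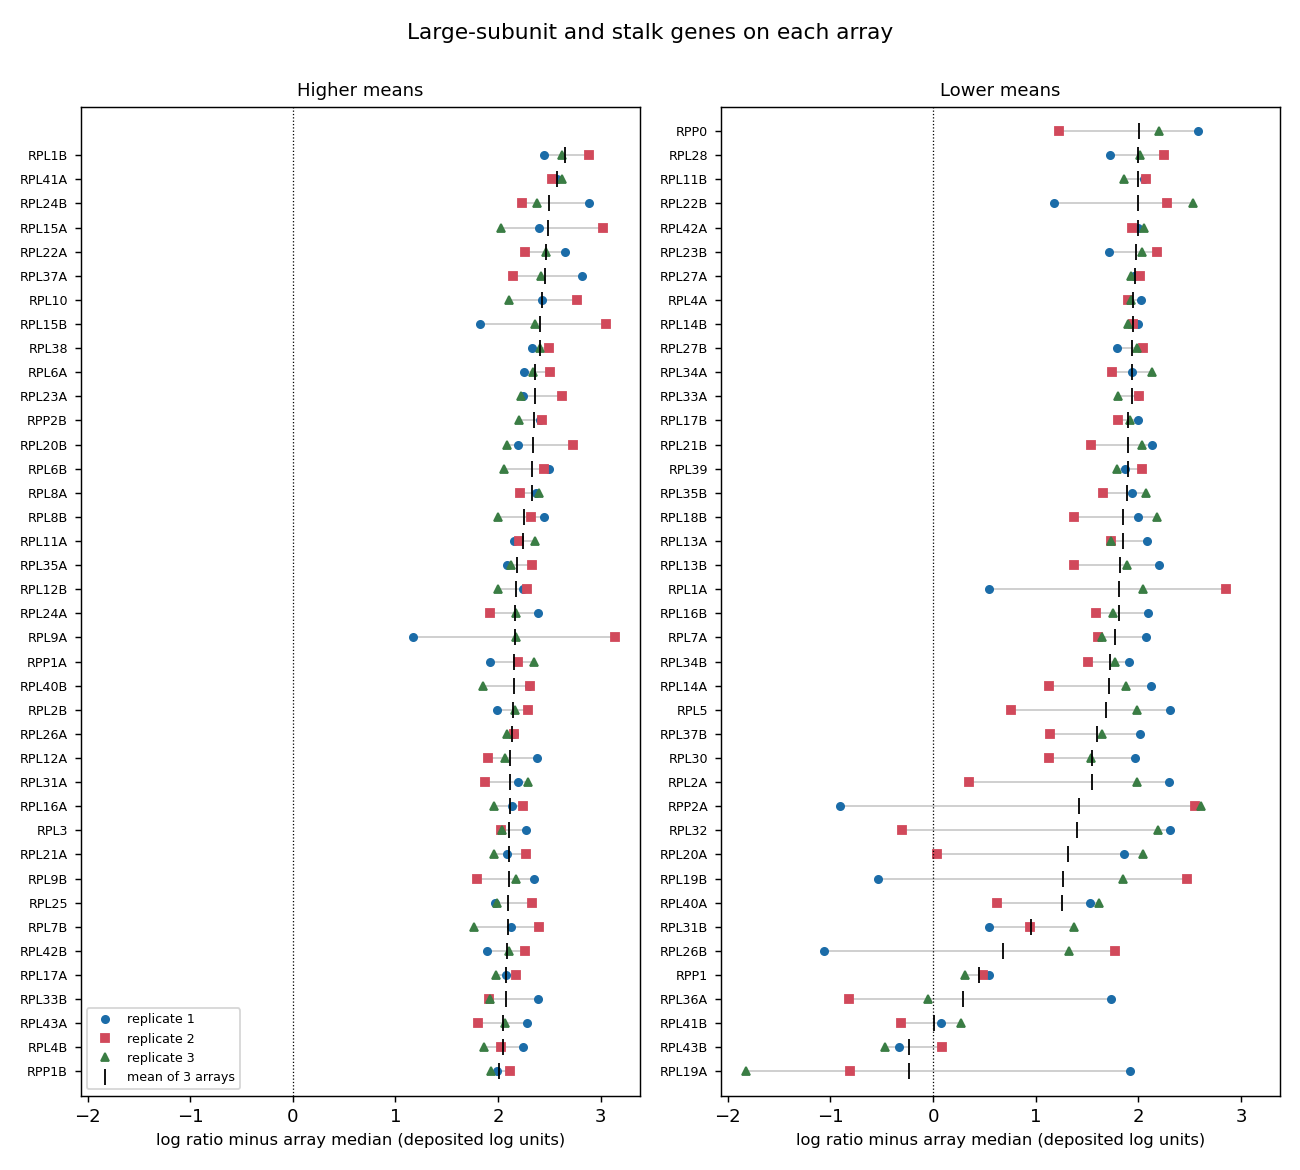
Log ratio minus array median (deposited log units, x axis) of each of the 79 members (y axis, ordered by mean) on replicates 1, 2 and 3, with a tick at the mean and a grey line from the lowest to the highest array. Most genes lie close to 2 on all arrays, while RPL19A, RPP2A, RPL19B, RPL26B, RPL32 and RPL36A have 1 array far from the others or spread over the axis.

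The stalk genes lay with the rest of the subunit. RPP0 (YLR340W), the protein that anchors the stalk to the ribosomal RNA, had values of 2.58, 1.22 and 2.21 on replicates 1, 2 and 3, and its mean was 2.00 ± 0.70 (SD, n = 3; limma adjusted p = 6.80e-05, and 0.0573 without replicate 3). RPP1A (YDL081C) lay at 1.92, 2.20 and 2.35, and RPP1B (YDL130W), the other P1 gene, at 1.99, 2.11 and 1.93. RPP2B (YDR382W), a P2 gene, was the highest stalk gene, at 2.41, 2.43 and 2.20, which averaged 2.35 ± 0.12 (SD, n = 3). These genes were on the high side of every array.

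RPP2A (YOL039W), the other P2 gene, differed between arrays. It lay at 2.55 and 2.61 on replicates 2 and 3, above all other stalk genes, but at −0.91 on replicate 1, where its spots had −0.49 and −1.34. Its mean of 1.42 ± 2.02 (SD, n = 3) passed only narrowly (limma adjusted p = 0.0374). Without replicate 1 the mean was 2.58 (adjusted p = 2.82e-15), while the call was lost without replicate 2 (0.85, adjusted p = 0.0592) and without replicate 3 (0.82, adjusted p = 0.519). In the fit without replicate 1 the adjusted p of members followed the size of the mean, so it does not measure how well 2 arrays agreed. RPL12A and RPL12B, which encode the protein at the base of the stalk, had means of 2.12 ± 0.24 and 2.17 ± 0.15 (SD, n = 3 each) and no such departure. RPP1 (YHR062C), the RNase P gene that shares the RPP prefix, lay at 0.54, 0.48 and 0.31 and was not called (mean 0.45, adjusted p = 0.154). It stood between the 69.5th and the 75.4th percentile of the genes on the 3 arrays. The stalk genes that share its prefix lay far above it, except RPP2A on replicate 1, at the 10.5th percentile.

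All 10 single-copy genes were called on the high side, with means from 1.40 to 2.43. RPL10 (YLR075W), which joins the subunit late and completes its functional centre, lay at 2.43, 2.77 and 2.10. RPL38 (YLR325C) lay at 2.33, 2.49 and 2.40, and RPL3 (YOR063W), a protein near the peptidyl transferase centre, at 2.27, 2.02 and 2.03. The SDs between arrays were 0.33 for RPL10, 0.08 for RPL38 and 0.14 for RPL3, beside a median of 0.236 over the members.

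RPL25 (YOL127W), a docking site for factors at the tunnel exit, lay at 1.97, 2.33 and 1.99. RPL39 (YJL189W), a short protein that lines the tunnel, lay at 1.87, 2.04 and 1.79. RPL28 (YGL103W), whose mutants resist cycloheximide, lay at 1.72, 2.25 and 2.02. The lower single-copy genes were lowest on replicate 2. RPL30 (YGL030W), whose protein binds and represses its own transcript, lay at 1.97, 1.13 and 1.54. RPL5 (YPL131W), the partner of 5S ribosomal RNA, lay at 2.31, 0.76 and 1.98. RPL32 (YBL092W) lay at 2.31 and 2.20 on replicates 1 and 3 and at −0.30 on replicate 2. Its call was lost without replicate 3 (mean 1.00, adjusted p = 0.323), and without replicate 2 its mean was 2.25.

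By copy, the A genes of the 33 pairs had a median of 2.11, the B genes one of 2.00 and the single-copy genes one of 2.00, and the stalk had 2.01. High-side calls numbered 32 of 33 A genes, 30 of 33 B genes, 10 of 10 single-copy genes and 5 of 5 stalk genes, against 16% of all genes. The stalk is not a separate class here: RPP0 is also counted as single-copy, and the P1 and P2 genes among the A and B genes. In 29 pairs both members were called. Differences between these medians were not tested. The highest members were found in every class but the stalk: RPL1B (YGL135W), of the mobile arm at the exit site for transfer RNA, lay at 2.45, 2.88 and 2.62, and RPL41A (YDL184C) at 2.58, 2.53 and 2.62. They were followed by RPL24B (mean 2.50), RPL15A (2.49), RPL22A (2.46), RPL37A (2.46), RPL10 (2.43) and RPL15B (2.41).

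By position in the subunit, 12 of 14 genes of the exit tunnel were called high, with a median of 1.93, and 3 of 3 genes of the complex with 5S ribosomal RNA, with a median of 2.00. RPL40A and RPL40B, whose proteins are made as fusions with ubiquitin, were called high at 1.26 and 2.16. Of the 10 genes of proteins that join late, 9 had spots and 8 were called high, with a median of 2.16.

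**Figure D2:**
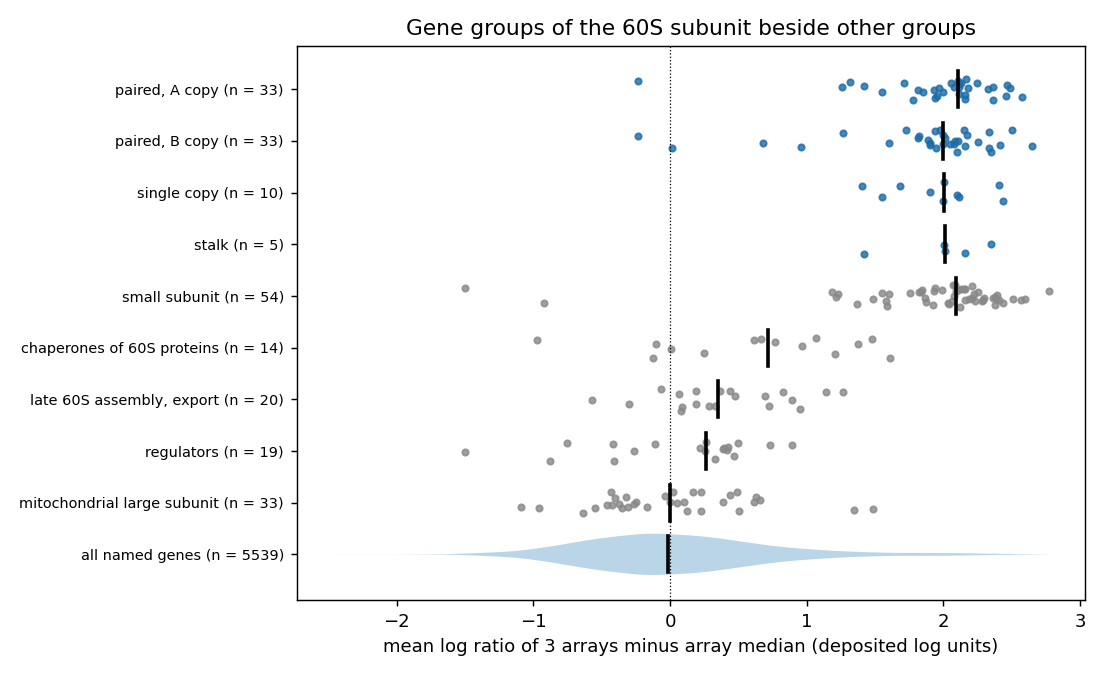
Mean log ratio of the 3 arrays minus the array median (deposited log units, x axis) for groups of genes (y axis), 1 point per gene with a black bar at the group's median, and a violin for all 5539 named genes. The 4 upper groups, the A copies, B copies, single-copy genes and stalk, have medians between 2.00 and 2.11, beside 2.09 for the small subunit and −0.0039 for the mitochondrial large subunit. Each stalk gene is also shown in the A, B or single-copy group.

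The members most unlike the rest were 5 ribosomal genes that were not called: RPL19A, RPL26B, RPL36A, RPL41B and RPL43B. RPL41B (YDL133C-A) encodes a very short basic peptide and lay at 0.08, −0.32 and 0.27 on the 3 arrays. Its mean was 0.01 ± 0.30 (SD, n = 3; limma adjusted p = 0.976), and its spots lay between −0.35 and 0.39. RPL43B (YJR094W-A), for a zinc-binding protein, lay at −0.33, 0.09 and −0.46, and averaged −0.24 ± 0.29 (SD, n = 3; adjusted p = 0.476). The spots of RPL43B lay between −0.80 and 0.16. Centred on spots without a symbol, RPL43B lay at 0.48 and was not called (limma adjusted p = 0.164). RPL41B lay there at 0.73 and was called high (adjusted p = 0.0309). RPL41B and RPL43B stayed within 0.5 units of the array median on all arrays, as no other ribosomal member did. On replicate 3, RPL43B nevertheless lay at the 19.1th percentile of the genes.

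RPL19A, RPL36A and RPL26B went different ways on the arrays. RPL19A (YBR084C-A) lay at 1.92 on replicate 1 and at −0.81 and −1.82 on replicates 2 and 3, and averaged −0.24 ± 1.94 (SD, n = 3; adjusted p = 0.728). Without replicate 1 it was called on the low side (−1.32, adjusted p = 0.000141). RPL36A (YMR194W) lay at 1.74, −0.82 and −0.05 (adjusted p = 0.565). RPL26B (YGR034W) lay at −1.06 on replicate 1 and at 1.77 and 1.33 on replicates 2 and 3. Without replicate 1, RPL26B was called on the high side, with a mean of 1.55 (adjusted p = 4.45e-06). In that limma fit the adjusted p of members followed the size of the mean, whatever the distance between a gene's 2 arrays. RPL5 (0.76 and 1.98, mean 1.37) had 6.45e-05, and RPL30 (1.13 and 1.54, mean 1.33) had 0.000108. The adjusted p of RPL19A and RPL26B there therefore does not measure how well their 2 arrays agreed.

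The A and B copies of a pair were compared by the difference of their log ratios on the same array, which does not depend on the array median. It compares ratios between the strains, not transcript levels of the copies. The fit covered all 60 pairs of the table whose symbols end in A and B, 23 of them small-subunit pairs and 2 of them open reading frames of Ty elements. Of the 33 member pairs, 2 passed an adjusted p of 0.05 with A above B, and 0 passed with B above A, where none had an unadjusted p under 0.05 either. Over all 60 pairs, 3.33% were called in each direction. The 2 called with A above B were the member pairs themselves, so this share is not separate from them. The 2 called with B above A were small-subunit pairs.

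RPL41A exceeded RPL41B by 2.50, 2.84 and 2.35 on the 3 arrays. The mean difference was 2.56 ± 0.26 (SD, n = 3), with a 95% interval of 2.04 to 3.09 and a limma adjusted p of 0.0100. RPL43A exceeded RPL43B by 2.61, 1.72 and 2.54, a mean of 2.29 ± 0.50 (SD, n = 3), with an interval of 1.56 to 3.01 and an adjusted p of 0.0156. In both pairs the lowest value of the A copy lay above the highest value of the B copy. With 2 arrays, the RPL41 and RPL43 calls were lost without replicate 1 (adjusted p = 0.0574 and 0.153) and without replicate 3 (0.0989 and 0.122), while the differences stayed between 2.13 and 2.67. With arrays scaled to the same spread the RPL43 call was lost (adjusted p = 0.0521), and without moderation of the variance both were (adjusted p = 0.128 for RPL41 A minus B and 0.153 for RPL43 A minus B).

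RPL31A, for a protein at the tunnel exit, exceeded RPL31B by 1.64, 0.92 and 0.91, a mean of 1.16 that missed the threshold (adjusted p = 0.0708). RPL37A exceeded RPL37B by 0.80, 1.00 and 0.77, a mean of 0.86 (adjusted p = 0.0672). These 4 pairs were the only member pairs with an unadjusted p under 0.05 in this fit. RPL31B, at 0.55, 0.94 and 1.38, was nevertheless on the high side of all arrays (adjusted p = 0.00912).

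The other wide differences varied between arrays. For RPL19, A minus B was 2.46 on replicate 1 and −3.29 and −3.68 on replicates 2 and 3, so the copies changed places between arrays (mean −1.50, 95% interval −5.55 to 2.55, adjusted p = 0.541; −3.48 without replicate 1, adjusted p = 0.0574). RPL19B (YBL027W) lay at −0.53, 2.47 and 1.86, low where RPL19A was high and high where it was low. Its own high-side call (mean 1.27, adjusted p = 0.0288) was lost without replicate 2 (0.66, adjusted p = 0.169) and without replicate 3 (0.97, adjusted p = 0.391). For RPL26, A minus B was 3.22 on replicate 1 and 0.38 and 0.76 on the others (mean 1.45, adjusted p = 0.404). For RPP2 it was −3.32 on replicate 1 and 0.12 and 0.41 on the others (mean −0.93, 95% interval −3.40 to 1.54, adjusted p = 0.541). For RPL1 it was −1.90, −0.03 and −0.57 (mean −0.83, adjusted p = 0.443).

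On replicate 2 the outlying pairs were others. For RPL20, A minus B was −0.33, −2.69 and −0.04 (mean −1.02, adjusted p = 0.467). For RPL40 it was −0.77, −1.69 and −0.24, with the B copy higher on every array (mean −0.90, 95% interval −1.86 to 0.07, adjusted p = 0.348). The P1 pair of the stalk, RPP1A and RPP1B, differed by only −0.07, 0.08 and 0.42 (mean 0.14, 95% interval −0.38 to 0.66, adjusted p = 0.669).

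In 22 of the 33 pairs the copies differed by less than 0.5 units on average, and in 20 pairs the 95% interval lay within 1 unit of 0 on either side. A was the higher copy in 20 pairs and B in 13, and 16 pairs had the same sign on all arrays. The means of A and B copies correlated across the 33 pairs with a Pearson coefficient of −0.05, a description of values that all share the same arrays. Many pairs have nearly the same coding sequence, so RNA of either copy may bind the spots of both, and the values of single copies are uncertain for that reason. Sequences were not compared here, so how far this limit bears on RPL41 and RPL43, the called pairs, was not tested.

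**Figure D3:**
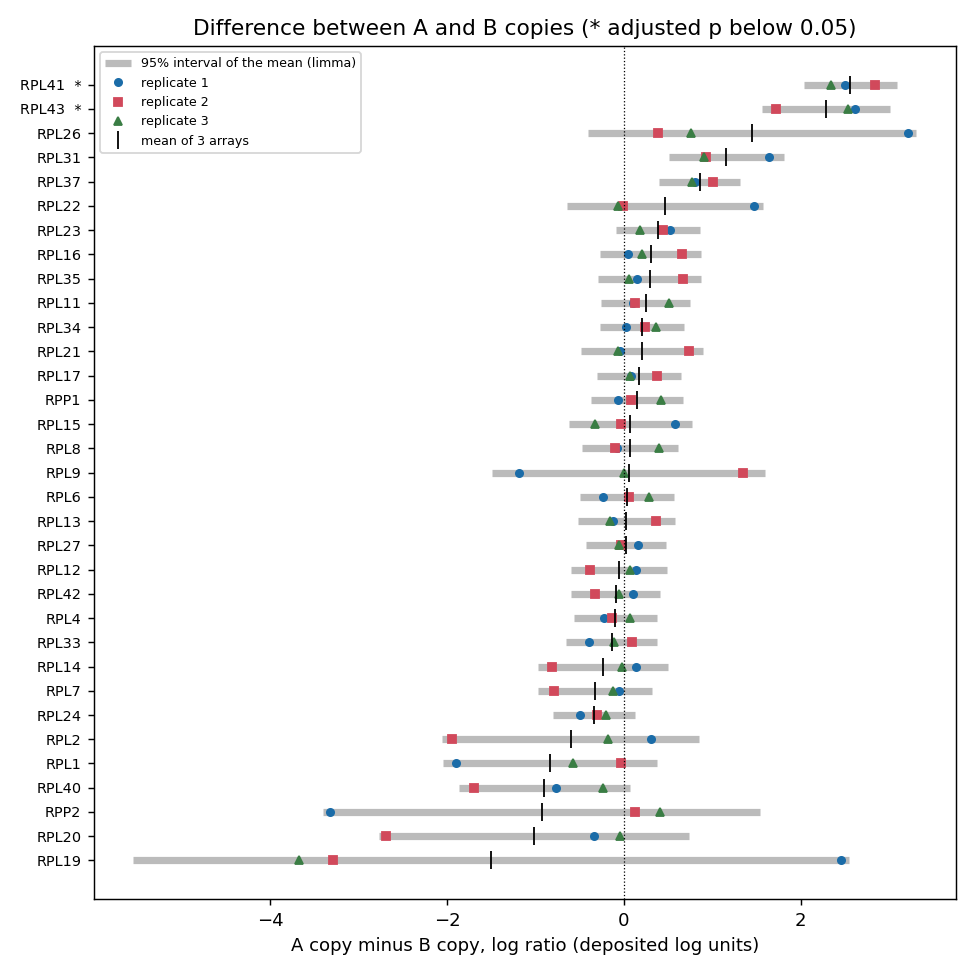
Log ratio of the A copy minus that of the B copy (deposited log units, x axis) for the 33 member pairs (y axis, ordered by mean), with replicates 1, 2 and 3 as points, the mean as a tick and limma's 95% interval as a grey bar. Only RPL41 and RPL43, marked with a star, passed an adjusted p of 0.05, while RPL19, RPP2, RPL20 and RPL26 have wide intervals.

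Part of these departures lay close together in the order of the spots. Taken in the order of their numbers, the spots were divided into 48 blocks of equal size, in which 12 positions without a gene symbol recur. On replicate 1, 6 of the 79 members lay more than 1 unit below the mean of the other arrays, against 4.86% of all genes: RPL19B, RPL1A, RPL22B, RPL26B, RPL9A and RPP2A. As far above lay 4 members, RPL19A, RPL2A, RPL32 and RPL36A, against 4.48% of all genes. RPL2A, RPL32 and RPL36A were low on replicate 2, and a low array lowers the mean that the others are set against. Of the 6, RPL19B, RPL26B, RPL1A and RPL9A had their spots in blocks 46, 47, 48 and 48, at the end of the order. The 5 members in blocks 45 to 48 had a median of 0.55 on replicate 1, and of 2.47 and 2.02 on replicates 2 and 3. RPL1A (YPL220W) lay there at 0.55, 2.85 and 2.05, and RPL9A (YGL147C) at 1.17, 3.14 and 2.17.

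On replicate 2, 6 of the 79 members lay more than 1 unit below the mean of the others, against 4.46% of all genes: RPL20A, RPL2A, RPL32, RPL36A, RPL5 and RPP0. As far above lay 5 members, RPL19B, RPL1A, RPL26B, RPL9A and RPP2A, against 3.25%. All of them were counted as below on replicate 1, so they are not separate departures. Of the 6 below, all but RPP0 had their spots in blocks 6, 10 and 11. RPP0 was in block 15, where the ribosomal protein spots had a median of 2.14, 1.11 and 1.74 on replicates 1, 2 and 3. In block 7 this median was 2.12, 1.25 and 1.88, so lower values on replicate 2 were not limited to blocks 6, 10 and 11. The 7 members in blocks 6, 10 and 11 had a median of 0.35 on replicate 2, and of 1.92 and 1.99 on replicates 1 and 3. RPL2A (YFR031C-A) lay at 2.30, 0.35 and 1.99, and RPL20A (YMR242C) at 1.86, 0.04 and 2.05. RPP1A, in block 10 as well, lay at 2.20 on replicate 2 and did not depart. On replicate 3, RPL19A was the only member more than 1 unit below the others, against 2.35% of all genes. As far above lay 3 members, RPL20A, RPL32 and RPP2A, against 2.44%, each of them counted as below on another array. The counts of members on the 3 arrays were not tested against the shares over all genes and are no result about the members as a set.

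Most small-subunit genes in the same blocks were low on the same arrays. The 4 in blocks 45 to 48 had a median of 0.01 on replicate 1 and of 2.12 and 2.08 on replicates 2 and 3, and the 6 in blocks 6, 10 and 11 had 0.50 on replicate 2 and 1.97 on both other arrays. More than 1 unit below the other arrays lay 3 of these 4 and 4 of these 6 genes. The exceptions were RPS30B, at 1.31 on replicate 1, and RPS16B and RPS19B, at 1.25 and 1.64 on replicate 2. The 444 other named genes of blocks 45 to 48 had a median of 0.31 on replicate 1 and of 0.36 and 0.08 on replicates 2 and 3, so as a group they were not low on replicate 1, although 14.2% of them lay more than 1 unit below the other arrays. The 342 other named genes of blocks 6, 10 and 11 had a median of −0.54 on replicate 2 and of −0.39 and −0.16 on replicates 1 and 3, and the share was 8.77%. The blocks were chosen after these values were seen, so no test was made, and the part of spot position in the pair differences above was not tested. RPL41A and RPL41B share block 22, and RPL43A and RPL43B lie in blocks 15 and 17. The ribosomal protein spots of block 15 were also lower on replicate 2, with a median of 1.11, against 2.14 and 1.74 on replicates 1 and 3. RPL43A itself lay at 2.28, 1.80 and 2.07 on replicates 1, 2 and 3.

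**Figure D4:**
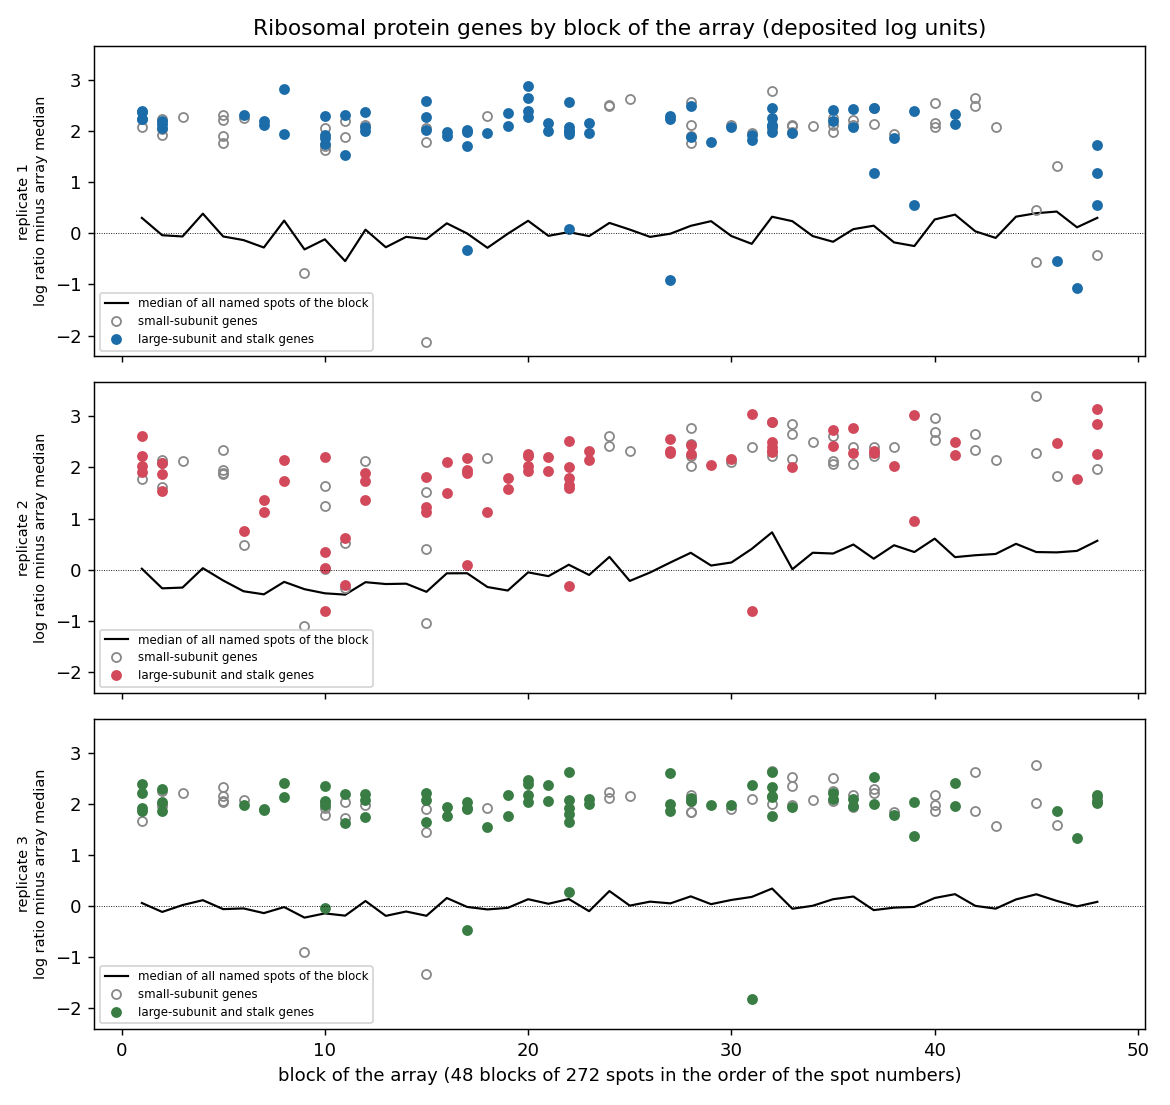
Log ratio minus array median (deposited log units, y axis) of the ribosomal protein genes against the block that holds their spots (x axis), for replicates 1, 2 and 3 from top to bottom, with large-subunit and stalk genes filled, small-subunit genes open and the median of all named spots of a block as a line. On replicate 1 most genes of blocks 45 to 48 fall below the band near 2, on replicate 2 most genes of blocks 6, 10 and 11 do, and replicate 3 shows neither.

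The order of the members among themselves was only partly shared between arrays. Across the 79 members the Pearson coefficient was 0.18 between replicates 1 and 2, 0.37 between 1 and 3 and 0.71 between 2 and 3, which describes genes of the same arrays and is not a test. Over all named genes, whose values spread more widely than those of the members, the coefficients were 0.63, 0.62 and 0.74. The SD between arrays was under 0.3 for 50 of the 79 members, and for 39.0% of all genes. The range over the arrays exceeded 1.5 units for 11 of the 79 members, and for 6.61% of all genes.

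The repeated spots of most members matched closely. The SD between the spots of a gene had a median of 0.116 over the members and 0.274 over all genes. It was above the all-gene median for RPL19A (0.52), RPL43B (0.37), RPP1 (0.34), RPP0 (0.32), RPL36A (0.31) and RPL30 (0.28). Genes outside the ribosome with an SD between spots as low as the members' median numbered 484, and their median was 0.49, with 38.2% called on the high side. The 40 members at or below the same SD had a median of 2.09, and the other members one of 1.90. Channel intensities were not analysed here, so the part of spot brightness in the displacement was not tested.

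Other genes of the ribosome were compared by lists. The 54 small-subunit genes had a median of 2.09, with 52 called high and 2 low. The 33 mitochondrial large-subunit genes with MRPL symbols, whose products build the separate ribosome of the organelle, had a median of −0.0039, with 2 called high and 2 low.

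Of 19 regulators of ribosomal protein genes, 2 were called high, 3 low and 14 neither, with a median of 0.26. Over all genes 16% were called high and 12.5% low, so these counts are near the background and are no result about the regulators as a list. HMO1, an HMG-box protein that binds many ribosomal protein promoters, lay on the low side at −1.40, −1.81 and −1.29 (mean −1.50 ± 0.27 SD, n = 3; limma adjusted p = 0.000288). The DNA-binding factor gene ABF1 (mean −0.88) and UTP22 (−0.75), whose product joins Ifh1 in a complex, were also low. DOT6, a repressor of ribosome assembly genes, lay on the high side at a mean of 0.89 and RAP1 at 0.73. FHL1 and IFH1 were not called, at 0.22 and 0.26. Without replicate 3 the calls of DOT6, ABF1, UTP22 and RAP1 were lost (adjusted p = 0.0676, 0.102, 0.0977 and 0.139). Those of DOT6, UTP22 and RAP1 were also lost without replicate 2, and that of UTP22 without replicate 1. With the first or the last spot of a gene in place of the mean, ABF1 lay at −0.40 by last spots (adjusted p = 0.332), and UTP22 (adjusted p = 0.117 and 0.0678) and RAP1 (adjusted p = 0.0533 and 0.119) were called by neither. Centred on spots without a symbol, ABF1 lay at −0.16 and UTP22 at −0.037, and neither was called.

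Of 14 chaperones of large-subunit and nascent proteins, 7 were called high and 1 low, against 16% high and 12.5% low over all genes, with a median of 0.72. They were led by SSB2, for an Hsp70 of the ribosome (1.61 ± 0.71), EGD1 and EGD2, for the subunits of the nascent chain complex (1.47 ± 0.36 and 1.38 ± 0.35), and SSZ1 (1.21 ± 0.58; SD, n = 3 each). SSB1, the near-identical partner of SSB2, was the low-side gene, at −0.51, −2.21 and −0.19 (adjusted p = 0.0339). Its call was lost without replicate 2 (−0.35, adjusted p = 0.528), without replicate 3 (adjusted p = 0.122), by first spots (adjusted p = 0.106), with centring by block (0.0636) or on spots without a symbol (0.482), with arrays scaled (0.0598) and with robust moderation (0.0701). The calls of EGD1 and SSZ1 were lost without replicate 3 (adjusted p = 0.0554 and 0.103).

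Of 20 genes of late assembly and export of the subunit, 7 were called high and 13 were not called, against 16% called high over all genes, with a median of 0.35. NUG1 (1.26), RPF2 (1.14), which brings in the 5S complex, SDO1 (0.95) and REI1 (0.89) led them. Without replicate 3 the calls of RPF2, SDO1 and REI1 were lost (adjusted p = 0.0918, 0.0757 and 0.0741), as was that of SDO1 without replicate 1 and that of REI1 without replicate 2 and by last spots (adjusted p = 0.0908). No late assembly gene or chaperone in these lists reached the median of the members.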

How the data were processed

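RNA of the yap1 mutant and of wild type was compared on 3 two-colour arrays, replicates 1 to 3 of 1 comparison. Every spot has 1 log ratio per array as the authors deposited it, of unstated base; the values fit a log2 scale as well as a natural one, and the deposited scale was kept. How the authors scanned, corrected and normalized the arrays is not stated by the sources. Spots were named through the platform annotation (11138 of 13056 spots had 1 symbol, 0 several and 1918 none). Spots of a gene were averaged and the array median over named genes subtracted. Means were tested against 0 with limma 3.58.1 in R 4.3.3 (lmFit, eBayes, two-sided, Benjamini-Hochberg over 5539 genes); A minus B differences were fitted likewise over 60 pairs. The fits were run on simulated independent normal values, with variances drawn from limma's fitted prior. The simulation held no block effects or outlying arrays, so it could not check how the fits handle those. The number of arrays limits the precision. The members, lists and tests were chosen with earlier results of these data known. Named were all stalk and single-copy genes, uncalled members and their partners, the 8 pairs farthest apart, the 8 highest members and up to 4 called genes of each other list; RPL1, RPL2A, RPL9A, RPL22B, RPL37, the small-subunit exceptions, RAP1, FHL1, IFH1 and SSB1 fall outside this rule and were chosen after their values were seen. Alternatives changed the centring, spots, scaling, variance and arrays. Centring on spots without a symbol used only the 576 such spots at the 12 positions with no symbol in any block.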

Additional observations from a re-analysis of the deposited data

How the results depend on the processing

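With values set against 0 as deposited, 0 members were called high and 7 low, with a median of 0.0038. On that scale nearly all genes lie below 0, the median over all genes is −2.02, and the distance of the members from it is unchanged. Members whose mean turned negative there were RPL11B −0.0021, RPL13A −0.15, RPL13B −0.18, RPL14A −0.29, RPL14B −0.052, RPL16B −0.19, RPL17B −0.097, RPL18B −0.15, RPL19B −0.73, RPL1A −0.18, RPL20A −0.68, RPL21B −0.099, RPL22B −0.0054, RPL23B −0.022, RPL26B −1.32, RPL27A −0.032, RPL27B −0.059, RPL28 −0.0019, RPL2A −0.45, RPL30 −0.45, RPL31B −1.04, RPL32 −0.60, RPL33A −0.066, RPL34A −0.064, RPL34B −0.27, RPL35B −0.11, RPL36A −1.71, RPL37B −0.40, RPL39 −0.10, RPL40A −0.74, RPL41B −1.99, RPL42A −0.0062, RPL4A −0.051, RPL5 −0.32, RPL7A −0.23, RPP1 −1.55, RPP2A −0.58. Other named genes that did were DOT6 −1.11, RAP1 −1.27, SSB2 −0.39, EGD1 −0.53, EGD2 −0.62, SSZ1 −0.79, NUG1 −0.74, RPF2 −0.86, SDO1 −1.05, REI1 −1.11, FHL1 −1.78, IFH1 −1.74. Centred on the 576 spots at positions without a gene symbol in any block, the members had a median of 2.72. The median of these spots lay at −0.58, −0.96 and −0.61 relative to the gene median on replicates 1, 2 and 3. RPL19A and RPL43B then turned positive (0.48 each), and 77 members were called high. RPL19A and RPL43B were the members not called (limma adjusted p = 0.164 each). Centred by block, the median was 1.97, RPL41B lay at −0.049 and IFH1 at −0.029, 71 members were high, and RPL31 A minus B passed (1.36, adjusted p = 0.0271). With arrays scaled to the same spread, the median was 2.06 and 1 pair passed, since RPL43 A minus B missed the threshold (adjusted p = 0.0521). RPL41B was at −0.0020 by first spots and at −0.043 by last spots, and RPL31 also passed by first spots (1.22, adjusted p = 0.0358). Without moderation of the variance, 0 members and 0 pairs were called, 64 members had an unadjusted p under 0.05, and 1 gene of the table was called. Such a fit has few degrees of freedom on 3 arrays. Robust moderation called 70 members high, losing RPL19B, RPL32 and RPP2A. Without 1 array, high-side members numbered between 58 and 74, the lowest without replicate 3, low-side members between 0 and 1, and pairs with A above B between 0 and 2. The median then ran from 2.02 to 2.03. Over the same fits RPL19A ranged from −1.32 to 0.56, RPL36A from −0.43 to 0.85, RPL41B from −0.12 to 0.18, and RPP2 A minus B from −1.60 to 0.27. No paired analysis was possible because the arrays form 1 group. With no channel intensities, dim and bright spots could not be separated.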
